A study of Capra hircus with 12 samples.

Results

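miR-22 and miR-218 are miRNAs with known roles in the hair follicle of the mouse, as is miR-31. All goat miRNAs named miR-31, miR-22 or miR-218 were taken from the deposited tables, whichever arm of the precursor they come from. Of 376 miRNAs, 3 carried such a name: miR-22-3p, miR-22-5p and miR-218, the last listed without an arm. No name matched miR-31, which was therefore not analysed here. The libraries came from secondary hair follicles (SHFs), which produce the fine cashmere fibre, of Liaoning cashmere goats aged 1.5 years. Untreated goats gave scapular skin, from which the follicles were dissected, and every one of 6 months had 1 female and 1 male library. Telogen comprised the 4 libraries of February and March, early anagen the 2 of May, mid-anagen the 2 of September, and catagen the 4 of November and December. The study's methods name 3 male and 3 female goats for each month. How single goats were combined into a library is not given in the sources used here. The p-values therefore measure the spread between these libraries only, and phase and season cannot be told apart.

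The hair follicle cycles between growth (anagen), regression (catagen) and rest (telogen). A miRNA is cut from a hairpin precursor, whose arms, 5p and 3p, can both give a mature strand that represses mRNAs carrying matching sites. In mouse skin, miR-31 is known from growing follicles, where it acts on keratins and on signals of the growth phase. miR-22 is known to bring on follicle regression in the mouse by repressing transcription factors of hair shaft differentiation, such as Dlx3 and Foxn1. miR-218 is known from vesicles of the dermal papilla, the mesenchymal signalling centre at the follicle base, and promotes Wnt signalling by repressing the inhibitor Sfrp2. In RefSeq's goat assembly ARS1.2, the entry MIR218 lies within SLIT3, a gene for a secreted guidance protein, and MIR22 lies within no other listed gene. The deposited names carry no locus, and the reads counted here were not traced to these entries.

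Each library held between 3135292 and 5788032 counts on miRNAs. TPM here is the share of these counts on a scale common to all libraries, without correction for composition, so levels are also given as CPM after TMM, a scaling that sets the bulk of the miRNAs equal between libraries. The TMM factor of the May libraries was 1.25 and 1.29, that of the September libraries 0.848 and 0.912. Scaling by library totals instead shifted the median difference of the 300 tested miRNAs on the log2 scale from 0.07 to -0.46 for May to September, from 0.08 to -0.47 for May to catagen and from 0.00 to 0.35 for catagen to telogen. Names typical of epithelium (6, among them miR-203 and miR-200c) summed to a TPM of 56735 to 96687 per library and those of mesenchyme (9, among them miR-143-3p and miR-199a-3p) to 118318 to 148888. In the study's in situ hybridization miR-143-3p was found in the hair matrix, so the latter sum does not stand for mesenchyme alone. Muscle (6 names, among them miR-1), endothelium (2, the miR-126 arms), leukocytes (4, among them miR-155-5p) and erythrocytes (2, miR-451-5p and miR-144-5p) were represented by 1902 to 3614, 8819 to 12699, 393 to 664 and 5.41 to 115 TPM, and of all these names only miR-206 of muscle was at 0 in a library, 1 of 12. Reads carry no molecular identifiers, so intervals on read shares cover counting error only.

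miR-218 was the most abundant member, with a mean TPM of 1167 ± 285 (SD, n = 12 libraries) and rank 56 of 376. miR-22-3p had a TPM of 87.5 ± 18.3 and rank 129, and miR-22-5p had a TPM of 19.9 ± 6.04 and rank 190. Behind these values stood 1771 to 8460 reads of miR-218 per library, 166 to 615 of miR-22-3p and 48 to 130 of miR-22-5p. The counting error of a single library was thus 1.09% to 2.38% for miR-218, 4.03% to 7.76% for miR-22-3p and 8.77% to 14.4% for miR-22-5p.

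Over the year, miR-218 and miR-22-3p had their lowest mean in May, while miR-22-5p varied little after TMM normalization. In normalized CPM, the highest library exceeded the lowest 4.42-fold for miR-218, 3.11-fold for miR-22-3p and 1.63-fold for miR-22-5p, beside a median of 2.53-fold over all tested miRNAs. A test of any difference between the 6 months by edgeR called 2 of the 3 members, miR-218 (adjusted p = 0.00977) and miR-22-3p (adjusted p = 0.0447), and 31.7% of all tested miRNAs. miR-22-5p was not called (adjusted p = 0.591). Leaving out any 1 of the May, September, November or December libraries ended the call of miR-22-3p, with an adjusted p of 0.0756 to 0.244, whereas miR-218 was called in all 12 such fits.

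**Figure D1:**
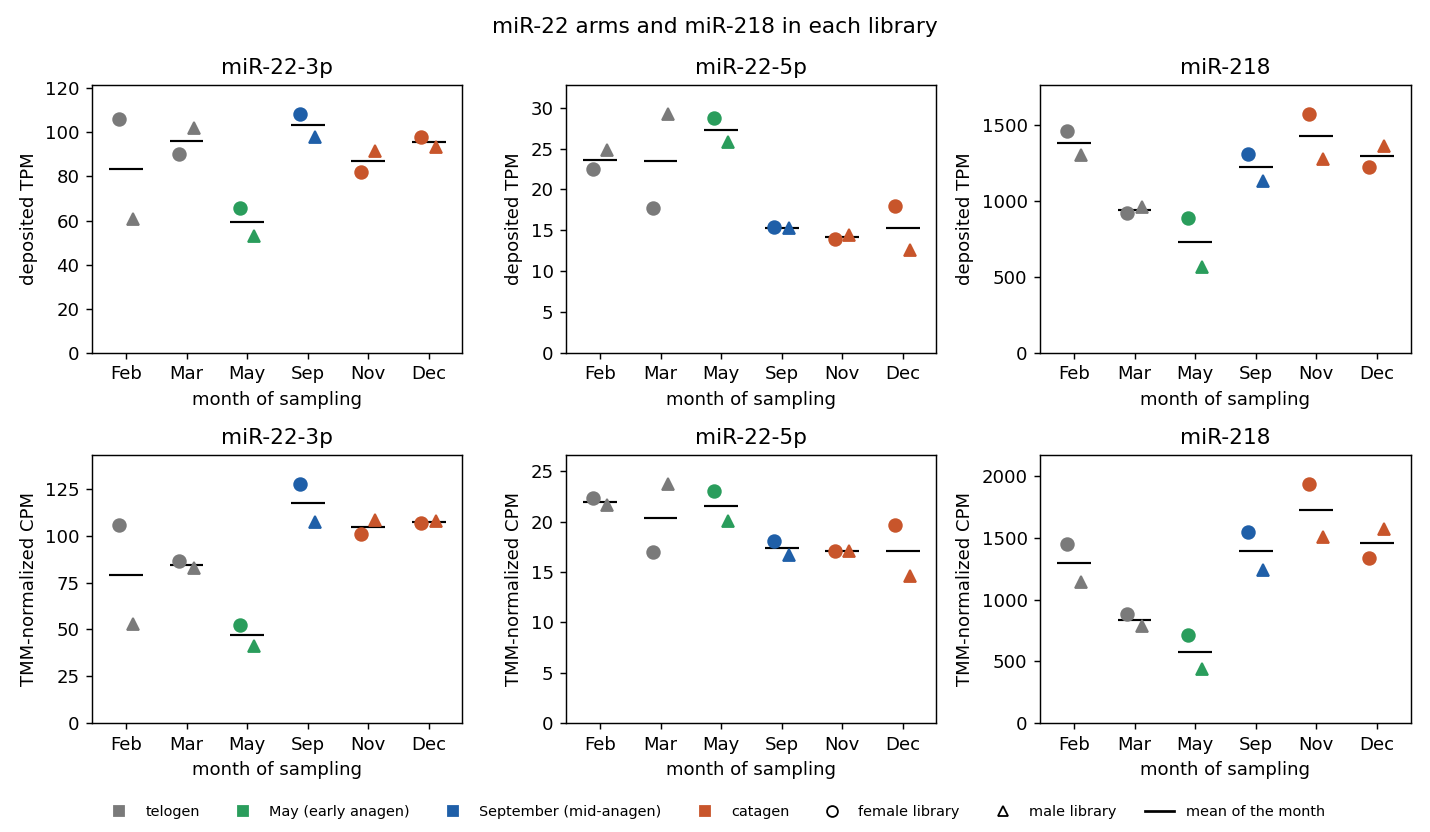
Levels of miR-22-3p, miR-22-5p and miR-218 in each of the 12 libraries by month, as deposited TPM (upper row) and as TMM-normalized CPM (lower row); circles are female and triangles male libraries, colours are phases and lines are the means of a month. The May libraries are the lowest for miR-218 and miR-22-3p on both scales, except that in TPM the male February library lies between the May libraries for miR-22-3p, at 60.8.

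miR-22-3p, the arm usually taken as the guide strand of miR-22, had its highest mean in September. Its TPM, female before male, was 65.5 and 52.95 in May, 108 and 98.1 in September, 82.2 and 91.7 in November, 98.0 and 93.5 in December, 106 and 60.8 in February, and 90.1 and 102 in March. Both May libraries were below all September and catagen libraries, and the male February library stood with them rather than with the other telogen libraries. By mean TPM the months ran from September (103 ± 7.34, SD, n = 2) through March (96.0 ± 8.29), December (95.8 ± 3.18), November (87.0 ± 6.75) and February (83.5 ± 32.1) to May (59.2 ± 8.89). Of the neighbours in this order only December and November had libraries that did not overlap, by less than 2 TPM.

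miR-218 had the widest range of the members after normalization. Its TPM, female before male, was 892 and 565 in May, 1313 and 1134 in September, 1578 and 1280 in November, 1227 and 1363 in December, 1462 and 1305 in February, and 921 and 965 in March. The libraries of March and May were the 4 lowest of the 12, so that March lay apart from February although both months stand for telogen. Mean TPM was highest in November (1429 ± 211, SD, n = 2), followed by February (1384 ± 111), December (1295 ± 96.4) and September (1224 ± 127), each overlapping with the next. March (943 ± 31.2) did not overlap with September, nor May (728 ± 231) with March.

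miR-22-5p, the less abundant arm, had its highest mean TPM in May. It stood at 28.8 and 25.8 TPM in May, 15.4 and 15.2 in September, 13.9 and 14.4 in November, 18.0 and 12.6 in December, 22.5 and 24.8 in February, and 17.7 and 29.3 in March, female before male. The May libraries were above all September and catagen libraries and within the range of telogen. In normalized CPM the May libraries, at 23.0 and 20.1, were still above all 6 September and catagen libraries, at 14.6 to 19.6, but by less than 1 CPM. Mean TPM ran from May (27.3 ± 2.08, SD, n = 2) through February (23.6 ± 1.64), March (23.5 ± 8.202), December (15.3 ± 3.82) and September (15.3 ± 0.0919) to November (14.2 ± 0.382), and May and February, and September and November, were the neighbours whose libraries did not overlap.

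Between early anagen and mid-anagen, miR-22-3p and miR-218 rose and miR-22-5p was not called. A miRNA was called between phases when its adjusted p was under 0.05 and its difference at least 2-fold. From May to September 2 of the 3 members were called, both higher in September, beside 18.3% of all tested miRNAs in either direction. miR-22-3p rose 2.51-fold, from 46.8 ± 8.004 to 118 ± 14.4 normalized CPM (SD, n = 2 each), a log2 difference of 1.33 with a standard error of 0.27 (edgeR, adjusted p = 0.00332). miR-218 rose 2.42-fold, from 577 ± 194.6 to 1396 ± 216 CPM, a log2 difference of 1.27 with a standard error of 0.30 (edgeR, adjusted p = 0.00767). For both, the ranges of May and September did not overlap. miR-22-5p had a log2 difference of -0.31 (95% interval -0.82 to 0.20, adjusted p = 0.333).

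In tissue samples, fewer cells that make a miRNA and less of it per cell cannot be told apart. On the scale of normalized CPM, on which miR-22-3p and miR-218 were called, the summed cell type names also moved. The muscle names summed to 1692 to 2133 CPM in May and 3715 to 4080 in September, the endothelial names to 7133 to 7757 and 10773 to 11204, the leukocyte names to 333 to 337 and 490 to 645, and the mesenchymal names to 109055 to 109271 and 154416 to 166616, all higher in September without overlap. The epithelial names (63248 to 70806 and 66911 to 79592) and the erythrocyte names (19.1 to 36.8 and 18.2 to 33.4) overlapped. In TPM the picture depended on the list: the muscle names (2113 to 2745 and 3389 to 3461) and, by a small margin, the mesenchymal names (136171 to 140589 and 140852 to 141278) were higher in September, the epithelial names (81375 to 88411 and 56735 to 72600) were lower, and the endothelial (9177 to 9686 and 9135 to 10220), leukocyte (416 to 434 and 415 to 588) and erythrocyte names (24.6 to 45.9 and 16.6 to 28.3) overlapped. Most of the mesenchymal sum came from miR-143-3p, at a mean TPM of 89982.5 over the 12 libraries. Likewise miR-203 (63230) made up most of the epithelial sum and miR-1 (2766) most of the muscle sum. The study places miR-143-3p in a cluster lowest in May and miR-199a-3p, also on the mesenchymal list, in one that peaks in May. A sum thus need not stand for each of its names. The part of the cell types in the differences of the members was not tested.

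Both calls from May to September depended on the scaling, and that of miR-218 on single libraries. With library totals the log2 difference was 0.80 for miR-22-3p (edgeR, adjusted p = 0.0253) and 0.75 for miR-218 (adjusted p = 0.0360), both under 2-fold, and -0.84 for miR-22-5p (adjusted p = 0.0289). Measured from the median of all tested miRNAs, the values with TMM and with totals were 1.26 and 1.26 for miR-22-3p, 1.21 and 1.203 for miR-218, and -0.37 and -0.38 for miR-22-5p. miR-218 was no longer called without the male May library (0.94, adjusted p = 0.0901) or the female September library (1.11, adjusted p = 0.0635), while miR-22-3p was called in all 12 fits that each left out 1 library.

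Catagen differed from May in the same members. From May to catagen 2 of the 3 members were called, both higher in catagen, beside 16.7% of all tested miRNAs in either direction. miR-218 rose 2.76-fold to 1592 ± 253 normalized CPM (SD, n = 4), a log2 difference of 1.46 with a standard error of 0.28 (edgeR, adjusted p = 0.00187). miR-22-3p rose 2.26-fold to 106 ± 3.41 CPM, a log2 difference of 1.18 with a standard error of 0.24 (edgeR, adjusted p = 0.00284). Its 4 catagen libraries lay close together, from 101 to 108 CPM. Without the male May library the log2 difference was 1.004 for miR-22-3p, at the edge of the 2-fold limit, and 1.15 for miR-218. miR-22-5p had a log2 difference of -0.34 (95% interval -0.78 to 0.10, adjusted p = 0.198). With library totals the values were 0.90 for miR-218 (adjusted p = 0.00772), 0.62 for miR-22-3p (adjusted p = 0.0364) and -0.89 for miR-22-5p (adjusted p = 0.00800), all under 2-fold. The May libraries are the same as in the preceding comparison, so this is no separate observation of a low level in May. In normalized CPM the catagen sums of the muscle (2852 to 4250), endothelial (10495 to 13716), leukocyte (484 to 637), mesenchymal (136829 to 162466) and epithelial names (78360 to 103752) were likewise all above those of May, and the erythrocyte names (6.39 to 30.5) overlapped. In TPM the May and catagen sums of all 6 lists overlapped. Their part in the result was not tested.

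**Figure D2:**
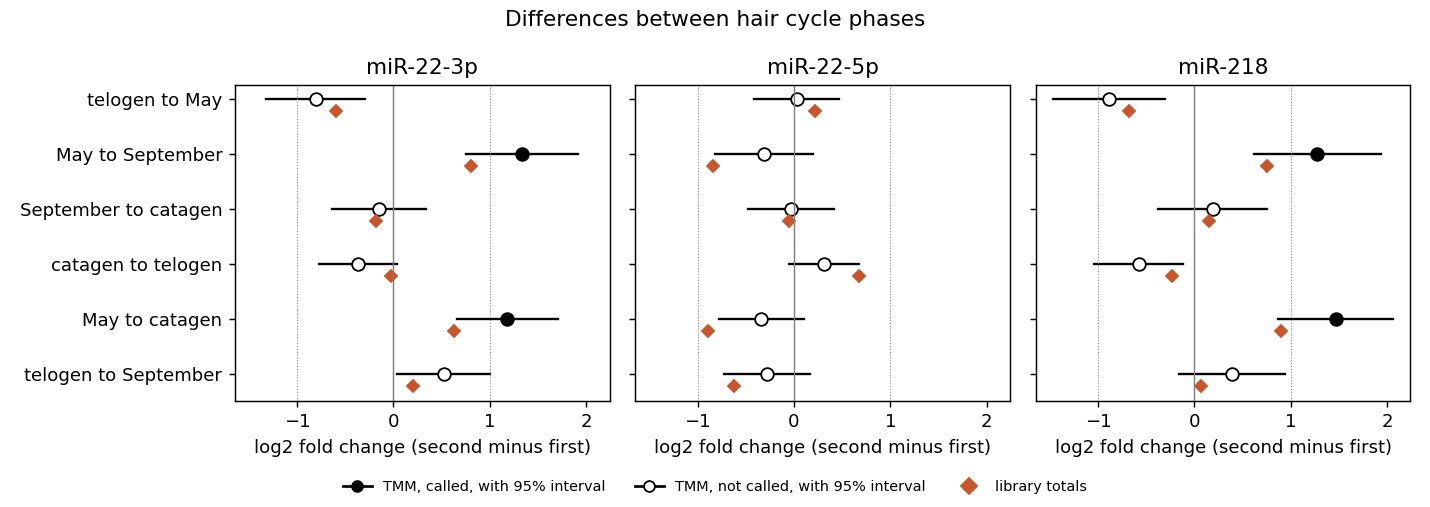
Log2 difference of each member in the 6 comparisons of phases, the second phase minus the first. Circles are values after TMM normalization with 95% intervals, filled where called; diamonds are values with library totals; dotted lines mark a 2-fold difference. Filled circles appear for miR-22-3p and miR-218 at May to September and at May to catagen, and their diamonds there lie inside the dotted lines.

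Mid-anagen and catagen are the phases between which the mouse role of miR-22 lies. From September to catagen edgeR and DESeq2 each called 0 of the 3 members, and 0 members had an unadjusted p under 0.05. Among all 300 miRNAs edgeR called 0%, with 23 at an unadjusted p under 0.05, and DESeq2 called 1. The log2 difference of miR-22-3p was -0.15 (95% interval -0.64 to 0.34), that of miR-22-5p -0.03 (-0.47 to 0.42) and that of miR-218 0.19 (-0.37 to 0.75). All 3 intervals include 0 and end short of a 2-fold difference.

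From telogen to May, the entry into growth, edgeR and DESeq2 each called 0 of the 3 members, beside 2.33% of all tested miRNAs by edgeR. With an unadjusted p under 0.05 by edgeR, 2 members were lower in May, beside 88 of all 300 miRNAs in either direction. The log2 difference was -0.89 for miR-218 (95% interval -1.47 to -0.30) and -0.81 for miR-22-3p (-1.32 to -0.29), each with an adjusted p of 0.0610 by edgeR. With DESeq2 the adjusted p was 0.0110 for miR-218 and 0.00790 for miR-22-3p, and with sex as a term in edgeR it was 0.0384 for both, so that in these fits the 2-fold limit alone kept them from being called. Without the male May library miR-218 was at -0.57 (adjusted p = 0.442). miR-22-5p was at 0.03 (-0.41 to 0.46). The telogen libraries of the former miRNAs were not uniform. miR-218 had 1454 and 1141 normalized CPM in February but 885 and 783 in March, and miR-22-3p had 106 and 53.1 in February and 86.6 and 82.7 in March.

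Between catagen and telogen, miR-218 was lower in telogen by a log2 difference of -0.58 (standard error 0.21, 95% interval -1.04 to -0.12), with an adjusted p of 0.0494 by edgeR but under 2-fold. Thus edgeR and DESeq2 each called 0 of the 3 members, beside 10.7% of all tested miRNAs by edgeR. An unadjusted p under 0.05 by edgeR was found for 1 of the 3 members, a smaller share than among all 300 tested miRNAs. With library totals the value of miR-218 was -0.23 (adjusted p = 0.324), and without the male March library it was -0.40 (adjusted p = 0.124). Its adjusted p was also above 0.05 with RLE size factors (0.0964), DESeq2 (0.0834), no filter (0.0822) and a fit of only these groups (0.0796). With sex as a term it was 0.0295, and with 1 library left out it lay between 0.0147 and 0.144. miR-22-3p was at -0.37 (-0.77 to 0.03, adjusted p = 0.135) and miR-22-5p at 0.31 (-0.05 to 0.67, adjusted p = 0.162). With library totals miR-22-5p was at 0.67 (adjusted p = 0.0186), also under 2-fold.

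Between telogen and September edgeR and DESeq2 each called 0 of the 3 members, beside 9.33% of all tested miRNAs by edgeR. With an unadjusted p under 0.05 by edgeR, 1 member was higher in September, miR-22-3p. Its log2 difference was 0.52 (95% interval 0.04 to 1.004, adjusted p = 0.0949). At that unadjusted limit the share of the 3 members was smaller than that of all 300 tested miRNAs in either direction. miR-218 was at 0.39 (-0.16 to 0.94, adjusted p = 0.262) and miR-22-5p at -0.28 (-0.73 to 0.16, adjusted p = 0.308). With library totals the values were 0.20 for miR-22-3p, 0.07 for miR-218 and -0.62 for miR-22-5p.

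The arms of miR-22 come from the same precursor, and their ratio does not depend on the scaling of a library. In May the 5p arm had 30.5% of the miR-22 reads in the female library (95% Wilson interval 26.2% to 35.3%, 119 of 390 reads) and 32.8% in the male library (27.2% to 38.9%, 81 of 247). In September it had 12.4% (10.1% to 15.1%, 83 of 669) and 13.4% (10.9% to 16.5%, 78 of 580). The 4 catagen libraries lay between 11.9% and 15.5%, and telogen stood at 17.4% and 28.9% in February and 16.4% and 22.3% in March, female before male. Both May libraries were above all others, and all telogen libraries were above all September and catagen libraries. Counting error left both borders unclear. The interval of the male February library (24.6% to 33.7%) overlapped those of both May libraries. That of the female March library (13.5% to 19.7%) overlapped that of the female December library (12.7% to 18.9%).

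Per read of miR-22-5p there were 2.16 ± 0.161 reads of miR-22-3p in May (SD, n = 2), 3.94 ± 1.21 in telogen (n = 4), 6.28 ± 0.842 in catagen (n = 4) and 6.75 ± 0.441 in September (n = 2). From May to September the ratio of 5p to 3p fell 3.10-fold, a log2 difference of -1.63 with a standard error of 0.34 (limma over 82 precursors, adjusted p = 0.000557). From catagen to telogen it rose 1.64-fold, a log2 difference of 0.71 with a standard error of 0.24 (limma, adjusted p = 0.0211). Calls of the arm ratio, which had no fold limit, were frequent, at 40.2% of the precursors from May to September and 48.8% from catagen to telogen. For miR-22 the first call held whichever of the 12 libraries was left out, and the second was lost without the male February library (0.50, adjusted p = 0.0940) or the male December library (0.63, adjusted p = 0.0663).

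**Figure D3:**
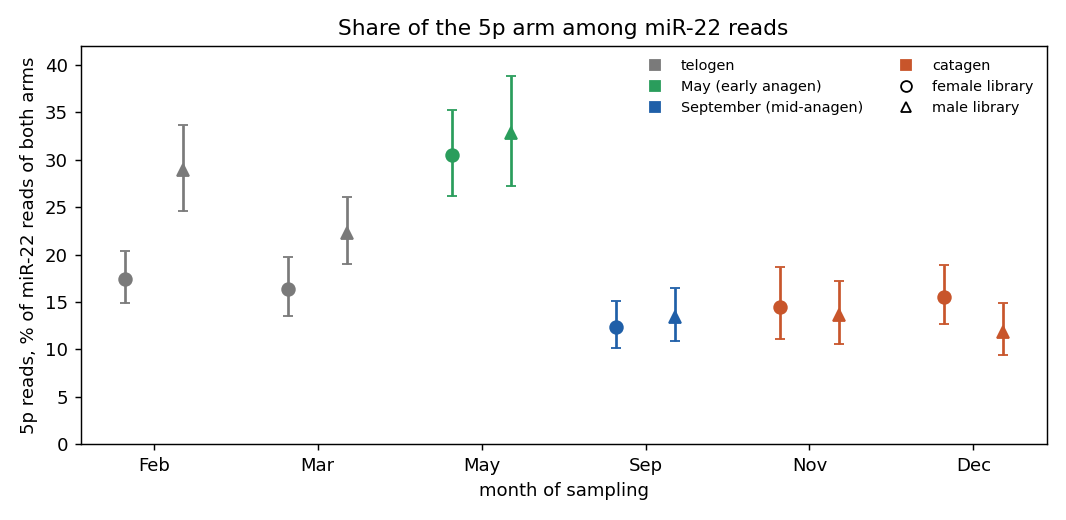
Share of 5p reads among the miR-22 reads of both arms in each library, by month, with 95% Wilson intervals for counting error; circles are female and triangles male libraries. The May libraries, at 30.5% and 32.8%, are highest, and the September and catagen libraries lie between 11.9% and 15.5%.

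Between the sexes no member passed the limit on adjusted p. With month as a term, edgeR called 0 of the 3 members, 1 of which had an unadjusted p under 0.05, and DESeq2 called 0. Over all 300 miRNAs edgeR called 0%, with 34 at an unadjusted p under 0.05, and DESeq2 called 0. The log2 difference, male minus female, was -0.28 for miR-218 (95% interval -0.54 to -0.01, adjusted p = 0.407), -0.25 for miR-22-3p (-0.60 to 0.09) and -0.05 for miR-22-5p (-0.40 to 0.30). In normalized CPM miR-218 was higher in the male library in 1 of 6 months, December, and miR-22-3p in 2 of 6, November and December.

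The difference between catagen and telogen was also compared between the sexes. edgeR and DESeq2 each called 0 of the 3 members (adjusted p = 0.368 to 0.814 by edgeR), beside 1.33% of all tested miRNAs by edgeR. An unadjusted p under 0.05 by edgeR was found for 0 members, beside 64 of all 300 miRNAs. For miR-22-3p the telogen level minus the catagen level was -0.12 in the female and -0.71 in the male libraries on the log2 scale. The male February library, at 53.1 CPM, was the lowest of the 8 libraries of these phases.

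The miRNAs most like the members over the 12 libraries are given as a description, since all values share the same libraries and phases. By Pearson correlation of log2 normalized CPM, miR-218 was most like miR-708-3p (r = 0.97), miR-1271-5p (0.94) and a miRNA listed as novel_704 (0.94). miR-708-3p had a mean TPM of 1213 in May, 1936 in telogen, 2220 in September and 2446 in catagen, the order of phases that miR-218 had too. miR-22-3p was most like miR-200a (0.92), a miRNA of epithelial cells, followed by miR-182 (0.91) and miR-1271-5p (0.90). miR-200a stood at a mean TPM of 1158 in May, 1562 in catagen, 1585 in telogen and 2155 in September. After TMM its log2 difference from May to September was 1.43, whereas miR-200b and miR-203, also of the epithelium, were at 0.33 and 0.10. miR-22-5p was most like miR-18a-5p (0.87), of the proliferation-associated miR-17-92 cluster, then miR-340-5p (0.80) and miR-136-5p (0.79). miR-18a-5p had a mean TPM of 68.9 in May, 56.2 in telogen, 29.7 in catagen and 28.6 in September. Library totals gave the same 3 names for miR-218 and for miR-22-3p and 2 of the 3 for miR-22-5p, and Spearman's correlation gave 2, 0 and 2 of them.

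Among the members, miR-218 and miR-22-3p had a Pearson r of 0.82 over the 12 libraries, or 0.58 with library totals. miR-22-5p had an r of -0.52 with miR-22-3p, the other arm of its own precursor, and of -0.49 with miR-218.

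Other miRNAs known from the follicle were read beside the members. The list held miR-24-3p, miR-29a-3p, miR-29b-3p, miR-125b-5p and miR-205-5p, known from stem cells and progenitors of the skin, miR-200a, miR-200b and miR-203 of the epithelium, miR-214-3p, which acts on Wnt signalling, miR-21-5p and miR-195-5p. miR-205-5p was not analysed here, and the other 10 were tested. From May to September 2 of the 10 were called by edgeR, both higher in September, beside 18.3% of all tested miRNAs in either direction. The log2 difference was 1.43 for miR-200a (standard error 0.23, adjusted p = 0.00131) and 1.298 for miR-29b-3p (standard error 0.42, adjusted p = 0.0303), and with library totals both were under 2-fold (0.90 and 0.77). In the study, quantitative PCR also found miR-200a higher in September than in May. The median log2 difference of the 10 by sequencing was 0.11, beside 0.07 for all tested miRNAs. miR-29b-3p, which targets collagen mRNAs, was the 1 miRNA of the list called from telogen to May (-1.91, adjusted p = 0.0220) and from May to catagen (1.62, adjusted p = 0.00620). Of all tested miRNAs 2.33% and 16.7% were called in these comparisons. edgeR called 0 of the 10 from September to catagen, from catagen to telogen and from telogen to September. An unadjusted p under 0.05 by edgeR was found for 5, 5 and 3 of the 10. Compared with all 300 tested miRNAs at that limit, this share was larger, about the same and smaller, in this order. DESeq2 called 0, 0 and 1 of the 10. Over all 300 tested miRNAs edgeR called 0%, 10.7% and 9.33%, and DESeq2 called 1, 38 and 34. With library totals edgeR called 0, 3 (miR-195-5p, miR-214-3p and miR-29a-3p) and 2 (miR-195-5p and miR-29a-3p), beside 0, 48 and 42 of all 300.

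In the test of any difference between months, edgeR called 3 of the 10, namely miR-200a (adjusted p = 0.0211), miR-214-3p (adjusted p = 0.0255) and miR-125b-5p (adjusted p = 0.0347). That test called 31.7% of all tested miRNAs. DESeq2 called 6 of the 10, and edgeR with library totals called 7, without miR-200a (adjusted p = 0.0949). Over all 300 tested miRNAs these fits called 128 and 99. miR-214-3p had a TPM of 63.1 to 69.5 in telogen and 28.4 to 32.2 in catagen, with May (42.7 and 50.5) and September (46.3 and 47.3) between. miR-125b-5p was highest in May, at 943 and 1045 TPM, followed by 438 to 714 in telogen, 476 and 489 in September and 449 to 499.03 in catagen.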

How the data were processed

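Per the study's methods, the authors removed adapters and reads with unknown bases, used CHIR_2.0 as the reference genome, and found miRNAs by miREvo and mirDeep2. Bowtie 0.12.9 is named in the submitters' processing notes. A raw count and a TPM were deposited for 376 miRNAs in each of the 12 libraries, and the TPM is the count scaled by the library total, within 0.005. How the authors assigned reads that match several miRNAs is not given in the sources used here. Groups followed the labels. The members and lists were chosen with earlier results of these data known.

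Counts were tested in R 4.3.3 by edgeR 4.0.16 (TMM, quasi-likelihood test), with Benjamini-Hochberg adjustment over the 300 miRNAs above 5 CPM in at least 2 libraries. One model of 4 phases gave the 6 comparisons, called at an adjusted p under 0.05 and 2-fold. Models of 6 months, of sex with month as a term, and of phase by sex had no fold limit. The standard error was taken from the log2 difference and its F. Arm ratios (1 added to each arm's count) of the 82 precursors with both arms tested went into limma 3.58.1. Correlations used log2 CPM with a prior count of 1. The miRNAs named are the members, the 3 most like each by correlation, and the lists. Alternatives were RLE size factors, library totals, no filter, DESeq2 1.42.0, no fold limit, models of just the phases compared, sex as a term, other counts added to the arms, all precursors with both arms listed, and each library left out. Scripts were tested on simulated data. Mature sequences and seeds, and miR-142, miR-205 and miR-486 of the lists, were not analysed here. Precursor neighbours came from RefSeq genes of ARS1.2, which is not the authors' reference, and coordinates are left out.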

Additional observations from a re-analysis of the deposited data

How the results depend on the processing

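With library totals in place of TMM, 0 members were called from May to September and 0 from May to catagen, in place of 2 each, while both called members kept their direction and an adjusted p under 0.05. Without the 2-fold limit 1 member, miR-218, was called from catagen to telogen (edgeR, adjusted p = 0.0494), a value above 0.05 with RLE size factors, library totals or DESeq2. The test of any month called 1 member (miR-218) with RLE size factors, library totals or no filter on low counts, and 1 to 2 members when each library was left out. Leaving out each library gave 1 to 2 members called from May to September, and 0 to 1 for the arm ratio of miR-22 from catagen to telogen. No called difference of a member changed direction under the alternatives run. Values near 0 did. For miR-22-5p, telogen to May was -0.021 with RLE size factors, -0.019 with DESeq2 and -0.010 to 0.15 with a library left out, September to catagen was -0.085 to 0.084 with a library left out, and male minus female was 0.045 with library totals, 0.046 without a filter and -0.12 to 0.085 with a library left out. For miR-218, the difference between the sexes in catagen to telogen was 0.016 with library totals and -0.64 to 0.25 with a library left out. The cause was not tested. The counts over all miRNAs moved as well. From telogen to May 7 were called, but 4 with library totals, 12 with DESeq2, 15 with sex as a term, 0 in a fit of only these groups, 0 without the male May library and 27 without the male March library. From May to catagen 50 (27 higher in catagen) became 82 with library totals (10 higher) and 27 without the male May library, from May to September 55 (29 higher in September) became 80 with library totals (9 higher) and 27 without the female September library, from catagen to telogen 32 (19 higher in telogen) became 48 with library totals (43 higher), and the sex difference of catagen to telogen went from 4 to 11 with library totals, 22 with DESeq2, 20 without the male February and 1 without the male November library. From telogen to September 28 (14 higher in September) became 42 with library totals (4 higher), 18 in a fit of only these groups and 6 without the female September library, and for any month 95 became 24 without the male May and 153 without the male March library. From September to catagen 0 became 1 with RLE size factors or DESeq2, and between the sexes 0 became 1 without a filter. Without the 2-fold limit the counts were 16 from telogen to May, 102 from May to September, 105 from catagen to telogen, 111 from May to catagen and 76 from telogen to September. The replicates of May and September, 2 libraries each, and the 48 to 130 reads of miR-22-5p limit the precision. The labels number no replicates. The female and male libraries of a month were related through month as a term in the test of sex and through sex as a term in that of phases, which changed no call of a member but took the adjusted p of miR-218 and miR-22-3p from telogen to May from 0.0610 to 0.0384.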
